A study of Mus musculus with 6 samples.

Results

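The cadherins other than Cdh2 (N-cadherin) and Cdh5 (VE-cadherin) were described in 3 mouse endothelial cell lines, together with the protocadherins. The members were the genes whose symbol starts with Pcdh or is Cdh followed only by digits, taken from probe sets annotated to a single gene, with Cdh2 and Cdh5 left out. This gave 55 of the 19936 genes measured, of which 21 are numbered cadherins, 12 are protocadherins outside the gene clusters and 22 are protocadherins of the beta cluster. No alpha or gamma protocadherin has a probe set of its own in the annotation used. The lines were all derived from embryonic stem cells and labelled by the cadherin they express: line N expresses N-cadherin, line VE expresses VE-cadherin, and line VE+N expresses both. GEO's labels do not say how each state was made, and each state is represented by 1 named line, so a difference between cadherin states cannot be told apart from a difference between lines. Every line was seeded at 50000 cells per square centimetre in medium with 20% serum, kept for 72 h, and then starved for 18 to 20 h in 1% albumin. From each line, 2 RNA extractions were amplified and hybridised to Affymetrix Mouse Gene 1.0 ST arrays, which measure signal from probes along the whole transcript.

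The labels were set against the signals of both reference cadherins before the members were compared. Signals are on the log2 scale, where a difference of 1 is a doubling, and they are given in the order replicate 1, replicate 2. Cdh2 gave 7.66 and 7.67 in line N, 5.8 and 5.93 in line VE, and 6.69 and 6.7 in line VE+N. Cdh5 gave 7.26 and 7.3 in line N, 7.05 and 6.83 in line VE, and 7.05 and 7.16 in line VE+N, so it was not higher in either line labelled as expressing VE-cadherin. The lines are therefore named by their labels throughout, and every direction is between cells so labelled. All 14 listed endothelial markers were above a guide for dim signals in the lines, the 95th percentile of 1194 odorant and vomeronasal receptor genes, which was 4.24 in cells labelled N, 4.2 in those labelled VE and 4.25 in cells labelled VE+N. The guide is not a detection call. It was passed in at least 1 line by 39 members and in none by 16. Array medians lay between 4.85 and 4.91 over all deposited probe sets, and between 5.47 and 5.59 over the 19936 genes. The titles call the arrays biological replicates and the design text speaks of RNA extractions. Where the extractions do not come from separate cultures, the p-values measure only the spread between extractions. In RNA from a whole culture, fewer cells of a type and less RNA per cell cannot be told apart.

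Cadherins are calcium-dependent adhesion molecules whose repeated extracellular domains bind cadherins on the neighbouring cell. The classical ones, type I and type II, are anchored through their cytoplasmic tails to p120-catenin and to beta-catenin or plakoglobin, which link them through alpha-catenin to actin. Endothelial cells are known for VE-cadherin at their junctions and N-cadherin largely outside them, and cells that lose a classical cadherin can express another. Protocadherins lack the catenin-binding tail of classical cadherins. The delta-1 and delta-2 protocadherins have distinct conserved cytoplasmic motifs, and several delta-2 members bind the WAVE complex, which drives actin branching. The beta protocadherins are near copies encoded in a row, each by a single exon with a promoter of its own, and are best known for the combinations in which single neurons express them.

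The promoters of 3 delta-2 protocadherins are shown because Pcdh18 and Pcdh19 gave the largest differences between cells labelled VE and VE+N while Pcdh17, of the same subfamily, was not called in any comparison. The sequences are the 250 bases before the annotated start, from RefSeq on GRCm38.p6, written 5' to 3' on the strand of the gene. They are chr3:49757317-49757566 on the minus strand for Pcdh18, chrX:133688994-133689243 on the minus strand for Pcdh19 and chr14:84443313-84443562 on the plus strand for Pcdh17. Capitals mark matches to the GC box and to the CCAAT box.
Pcdh18: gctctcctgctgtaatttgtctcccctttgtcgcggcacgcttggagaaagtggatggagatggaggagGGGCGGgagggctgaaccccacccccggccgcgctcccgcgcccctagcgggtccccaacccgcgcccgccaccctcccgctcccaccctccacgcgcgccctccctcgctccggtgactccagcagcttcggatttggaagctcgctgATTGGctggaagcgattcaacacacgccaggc
Pcdh19: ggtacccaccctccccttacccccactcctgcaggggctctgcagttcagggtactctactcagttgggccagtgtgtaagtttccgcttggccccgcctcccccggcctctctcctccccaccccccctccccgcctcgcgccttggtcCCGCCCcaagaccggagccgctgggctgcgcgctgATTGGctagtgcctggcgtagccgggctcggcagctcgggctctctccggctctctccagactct
Pcdh17: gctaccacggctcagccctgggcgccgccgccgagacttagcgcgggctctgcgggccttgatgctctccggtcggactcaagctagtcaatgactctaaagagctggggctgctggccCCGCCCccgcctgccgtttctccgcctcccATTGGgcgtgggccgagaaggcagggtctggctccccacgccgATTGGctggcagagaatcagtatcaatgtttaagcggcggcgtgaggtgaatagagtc
Each of the 3 promoters held 1 GC box (GGGCGG, or CCGCCC on the other strand), as did 32.7% of the 32841 promoters of the same length. The CCAAT box (CCAAT or ATTGG) occurred once in Pcdh18 and Pcdh19 and 2 times in Pcdh17, against at least 1 match in 33.9% of all promoters. None of the 3 held a TATA box (TATAAA or TTTATA, 12.4% of all promoters), an E2 box (CAGGTG or CACCTG, 17.2%) or the ETS core CCGGAA or TTCCGG (12%). All 3 were rich in G and C, with 68% in Pcdh18, 69.2% in Pcdh19 and 64.8% in Pcdh17, where the median of all promoters was 52.4%. They held 23, 16 and 21 CG pairs, against a median of 6. These matches describe the letters and say nothing of which factors bind there.

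Of the 55 members, 7 were called lower than in cells labelled N in both other lines (12.7%, against 4.71% of all genes) and 0 were called higher in both (4.77% of all genes), in 2 comparisons that share the arrays labelled N. A gene was called where its limma p, adjusted by Benjamini-Hochberg over all 19936 genes, was under 0.05. The 0 did not hold under every alternative. Pcdhb14, called higher in cells labelled VE+N, was also called higher in those labelled VE among genes that passed the guide (0.46, limma adjusted p = 0.0433). With a trended prior, Pcdhb14 (0.46, limma adjusted p = 0.0431) and Cdh13 (0.29, limma adjusted p = 0.0332) were called higher in both. Without regard to calls, both arrays of each other line lay above both arrays labelled N for 13 members, among them Cdh13, Pcdhb14 and Pcdhb15 (23.6%, against 16% of all genes), and below them for 11 (20%, against 18.1%). The 13 also include Cdh8, Cdh9, Cdh12, Cdh18 and Pcdh20, which were below the guide in all lines, as were Cdh10 and Cdh19 among the 11. For Cdh9 the differences were only 0.06 and 0.08. Between cells labelled VE and N 12 of 55 members were called (21.8%, against 15.4% of all genes), of which 2 were higher (8.46% of all genes were) and 10 lower (6.99% of all genes). Between cells labelled VE+N and N 16 members were called (29.1%, against 19.1% of all genes), with 6 higher (10.2% of all genes) and 10 lower (8.91% of all genes). Between cells labelled VE+N and VE 4 were called (7.27%, against 10.1% of all genes), 2 in each direction (4.29% of all genes were higher and 5.84% lower). The 3 comparisons share arrays and are not independent of each other. In all, 19 members were called in some comparison (34.5%, against 25.6% of all genes) and 36 in none, and a called change exceeded 2-fold in 6 (10.9%, against 6.8% of all genes). Calls over 2-fold numbered 5 for VE minus N (3.81% of all genes), 5 for VE+N minus N (4.6%) and 2 for VE+N minus VE (2.52%). The arrays of the lines compared did not overlap for 36, 37 and 23 members, which is 65.5%, 67.3% and 41.8%, against 57.3%, 55.1% and 49.5% of all genes. The median member difference was near 0 in each comparison, at 0.01, 0.05 and 0.08, against -0.02, 0.0 and 0.03 over all genes. Of the 32 calls, 16 were also made in every fit that left out 1 array, in which the line left with a single array is assumed to vary like the others.

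**Figure D1:**
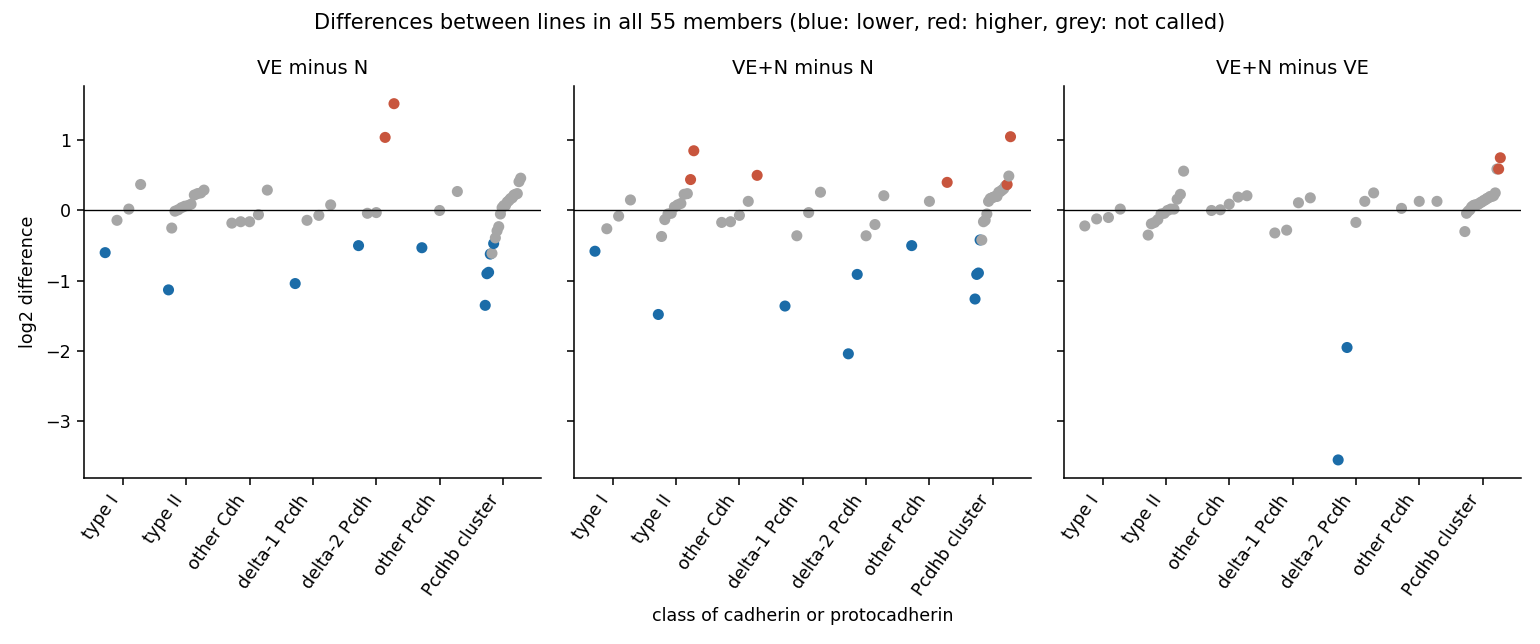
Log2 difference of each of the 55 members (points) in the 3 comparisons between lines, ordered by size within each class; red points were called higher, blue points lower and grey points were not called at a limma adjusted p under 0.05. Pcdh18 is the member farthest from 0 in each panel, at 1.52, -2.04 and -3.55, and Pcdh19 is next to it for VE+N minus VE alone, at -1.95, while Pcdhb11 and Cdh19 lie farther from 0 than Pcdh19 in the other panels.

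Among the 4 type I classical cadherins, which include the cadherins exchanged in cadherin switching, none was called higher in any comparison. Cdh15 (M-cadherin), known from skeletal muscle, was the only one called. It gave 5.96 and 5.94 in cells labelled N, 5.3 and 5.4 in cells labelled VE, and 5.39 and 5.34 in cells labelled VE+N. Both arrays labelled N were above all 4 others. Cdh15 fell by 0.60 ± 0.0972 (SE, n = 2 arrays a line, limma adjusted p = 0.00456) in cells labelled VE and by 0.58 ± 0.0972 (limma adjusted p = 0.00421) in cells labelled VE+N. Cdh1 (E-cadherin), the main cadherin of epithelia, gave 4.2 and 4.07 in cells labelled N, 4.57 and 4.44 in cells labelled VE, and 4.35 and 4.22 in cells labelled VE+N. The arrays labelled VE were the highest without overlap, yet all 6 values lay close to the guide. Its difference between cells labelled VE and N was 0.37 (95% interval 0.12 to 0.62, limma adjusted p = 0.0595), just outside the threshold. It was called when arrays were quantile normalised again (0.37, limma adjusted p = 0.0419). It was also called without the dimmest 25% of genes (0.37, limma adjusted p = 0.0369) and among genes that passed the guide (0.37, limma adjusted p = 0.0328). It was not called when arrays were centred on their medians (0.26, limma adjusted p = 0.128) or with a trended prior (0.37, limma adjusted p = 0.0961). Cdh3 (P-cadherin) lay below the guide on every array, between 3.75 and 3.97, with overlapping lines and a VE minus N difference of 0.02 (95% interval -0.22 to 0.27, limma adjusted p = 0.934). Cdh4 (R-cadherin) lay between 4.3 and 4.93 and was not called.

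Of the 12 type II classical cadherins, the group to which Cdh5 also belongs, Cdh22 was the only one called among the 3 that passed the guide. It gave 4.77 and 4.32 in cells labelled N, 4.94 and 4.74 in cells labelled VE, and 5.4 and 5.39 in cells labelled VE+N. The arrays labelled VE+N were the highest, while those of the other lines overlapped. Cdh22, known from brain, was higher by 0.85 ± 0.157 (SE, n = 2 arrays a line, limma adjusted p = 0.00685) in cells labelled VE+N than in those labelled N. Against cells labelled VE it differed by 0.56 ± 0.157 (limma adjusted p = 0.0654). That difference was called after centring the arrays on their medians (0.65, limma adjusted p = 0.031) or with only the 4 arrays compared (0.56, limma adjusted p = 0.0287). Cdh6 and Cdh24 also passed the guide, with signals from 4.12 to 4.53 and from 5.97 to 6.34, and were not called.

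The other 9 type II cadherins stayed below the guide in all lines, and 2 of them were called. Cdh19, known from Schwann cell precursors, gave 3.65 and 3.34 in cells labelled N, 2.26 and 2.47 in cells labelled VE, and 2.19 and 1.85 in cells labelled VE+N. The arrays labelled N were the highest, and it fell by 1.13 ± 0.157 (limma adjusted p = 0.00207) and 1.48 ± 0.157 (limma adjusted p = 0.000393) in cells labelled VE and VE+N. Cdh18, known from the nervous system, gave 3.43 and 3.39, then 3.8 and 3.44, then 3.85 and 3.86 in the same order of lines. It rose by 0.44 ± 0.13 (limma adjusted p = 0.0489) in cells labelled VE+N, and lost the call on leaving out either array labelled N or VE+N (limma adjusted p between 0.117 and 0.188). Cdh10, just outside the threshold, differed by -0.37 ± 0.128 (limma adjusted p = 0.0857) between cells labelled VE+N and N. Cdh11, a mesenchymal cadherin, gave 4.05 and 3.76, then 3.9 and 3.9, then 3.97 and 3.76, with lines that overlapped. Its VE minus N difference was -0.01 (95% interval -0.31 to 0.29, limma adjusted p = 0.98). The remaining type II cadherins below the guide were not called, with signals from 3.02 to 3.24 for Cdh7, 3.64 to 3.78 for Cdh8, 2.14 to 2.28 for Cdh9, 2.5 to 2.75 for Cdh12 and 3.2 to 3.53 for Cdh20.

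Among the 5 other numbered cadherins, Cdh13 was the only one called. It encodes T-cadherin, which is held to the membrane by a lipid anchor, has no cytoplasmic tail and is known from endothelium. Cdh13 gave 8.21 and 8.28 in cells labelled N, 8.6 and 8.47 in cells labelled VE, and 8.71 and 8.78 in cells labelled VE+N. The lines did not overlap in any pair. Cdh13 was higher by 0.50 ± 0.101 (SE, n = 2 arrays a line, limma adjusted p = 0.0106) in cells labelled VE+N than in those labelled N. That call was lost without N replicate 1 (0.46, limma adjusted p = 0.0875) and without N replicate 2 (0.53, limma adjusted p = 0.0527). Cells labelled VE differed from those labelled N by 0.29 (95% interval 0.06 to 0.52, limma adjusted p = 0.104) and those labelled VE+N exceeded them by 0.21 (95% interval -0.02 to 0.44, limma adjusted p = 0.268). The VE minus N difference was called without the dimmest 50% of genes (0.29, limma adjusted p = 0.0317) and with a trended prior (0.29, limma adjusted p = 0.0332). The 14 endothelial markers were mixed in their order between lines. Their mean signal was 9.77 on both arrays labelled N, 9.96 to 9.99 on those labelled VE and 10.53 to 10.67 on the arrays labelled VE+N, and it rested on Vwf (5.21, 6.61 and 9.34 as line means) and Cldn5 (6.24, 9.26 and 11.68). Over the other 12, a set chosen after their values were seen, the mean was 10.44 to 10.45, 10.29 to 10.34 and 10.55 to 10.67. The mean signal rose from N to VE to VE+N in 4 of the 14 (Kdr, Vwf, Cldn5 and Erg), as for Cdh13, and was lowest in cells labelled VE in 9. For VE minus N 3 were called higher and 3 lower, with a median difference of -0.16, and for VE+N minus N 6 were called higher and 1 lower, with a median of 0.19. Their part in the Cdh13 difference was not tested. Cdh16 and Cdh23, known from kidney and from the hair cells of the inner ear, passed the guide narrowly, with signals from 4.12 to 4.6 and from 4.36 to 4.76, whereas Cdh17 (3.24 to 3.58) and Cdh26 (3.63 to 4.03) did not pass it. None of these 4 was called.

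**Figure D2:**
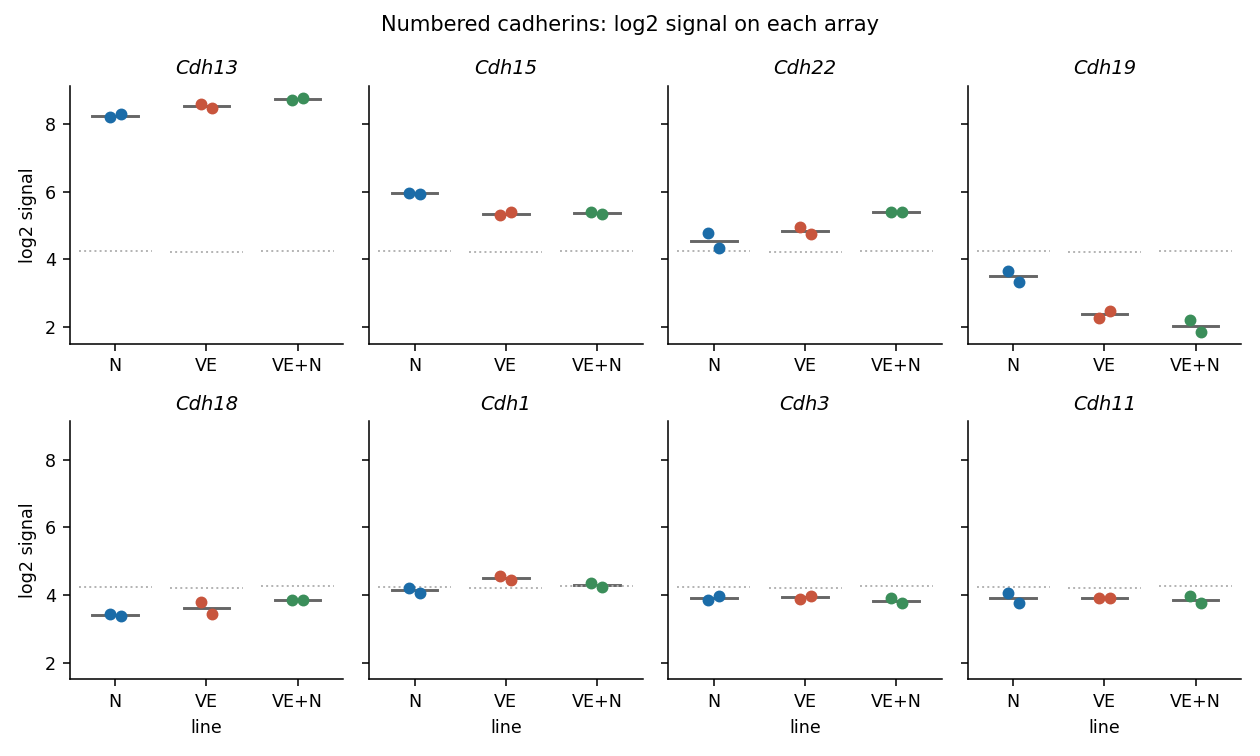
Log2 signal of 8 numbered cadherins on each array (points) of lines N, VE and VE+N, with the mean of the 2 arrays (bar) and the guide for dim signals in that line (dotted line). Cdh13 lies well above the guide at 8.21 to 8.78, Cdh15 is highest on the N arrays and Cdh22 on the VE+N arrays, and Cdh3, Cdh11, Cdh18 and Cdh19 stay below the guide in all lines.

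Among the 5 delta-2 protocadherins, Pcdh18 and Pcdh19 moved in the same directions, and Pcdh18 gave the largest difference of any member in each comparison. Pcdh19 was second to it for VE+N minus VE only. Pcdh18 gave 5.51 and 5.96 in cells labelled N, 7 and 7.5 in cells labelled VE, and 3.9 and 3.49 in cells labelled VE+N. The lines did not overlap, and both arrays labelled VE+N lay below the guide that all 4 others passed. Pcdh18 was 2.86-fold higher in cells labelled VE than in those labelled N (log2 difference 1.52 ± 0.218, SE, n = 2 arrays a line, limma adjusted p = 0.00247). In cells labelled VE+N it fell by 2.04 ± 0.218 from cells labelled N (limma adjusted p = 0.000409) and by 3.55 ± 0.218 from cells labelled VE (limma adjusted p = 6.51e-05). As the signal in cells labelled VE+N lay below the guide, these sizes were also set against the guide, which gave at least 2.8-fold lower than in cells labelled N and at least 8-fold lower than in cells labelled VE. The analysis of variance named in the study's design text, with its unadjusted p and a fold over 2, called Pcdh18 in all 3 comparisons and Pcdh19 in both that involve cells labelled VE. After Benjamini-Hochberg adjustment of that test, which is an addition here, the p-values for Pcdh18 were 0.119, 0.066 and 0.0615, and neither gene was called.

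Pcdh19, whose human counterpart is mutated in an X-linked epilepsy, followed the same order over a smaller range. Its signals were 6.08 and 5.85 in cells labelled N, 7.06 and 6.94 in cells labelled VE, and 4.77 and 5.35 in cells labelled VE+N, again without overlap and all above the guide. It rose by 1.04 ± 0.185 (SE, n = 2 arrays a line, limma adjusted p = 0.00706) in cells labelled VE. In cells labelled VE+N it fell by 0.91 ± 0.185 from cells labelled N (limma adjusted p = 0.011) and by 1.95 ± 0.185 from cells labelled VE (limma adjusted p = 0.00052). The rise lost its call without VE replicate 1 (0.98, limma adjusted p = 0.0684), and the fall from cells labelled N lost it without N replicate 1 (-0.79, limma adjusted p = 0.064).

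By their mean signals, markers of fibroblasts were ordered between the lines as Pcdh18 and Pcdh19 were. The mean log2 signal over the 5 markers was 4.97 to 4.98 on the arrays labelled N, 6.94 to 7.01 on those labelled VE and 4.57 to 4.58 on the arrays labelled VE+N. Of the 5, 4 were called higher in cells labelled VE than in those labelled N, and the same number lower in cells labelled VE+N than in those labelled VE. For VE+N minus N only Dcn was called, as lower, and the median difference of the 5 was -0.16. Pcdh18 and Pcdh19 differed by -2.04 and -0.91 in that comparison. Mean signals were 5.6, 8.12 and 5.26 for Pdgfra and 6.3, 9.7 and 6.19 for Col1a1 in cells labelled N, VE and VE+N. They were 5.11, 8.18 and 3.79 for Dcn, and 5.02, 5.04 and 4.95 for Thy1, which was not called. Lum, at 2.85, 3.83 and 2.7, stayed below the guide in every line. The 6 neural markers averaged 4.4 on both arrays labelled N, 4.83 to 4.96 on those labelled VE and 4.34 to 4.42 on the arrays labelled VE+N, with 2 of 6 called higher in cells labelled VE than in those labelled N. The 7 mural markers, which include Pdgfrb, averaged 5.47 to 5.48, 5.08 to 5.28 and 4.29 to 4.38 in the same order, with 2 called lower for VE minus N, 4 for VE+N minus N and 2 for VE+N minus VE, and 0 higher in any. Pdgfrb had mean signals of 9.04, 8.48 and 4.19, the last below the guide as for Pcdh18, and differed by -4.85 for VE+N minus N (limma adjusted p = 4.41e-07) and -4.29 for VE+N minus VE (limma adjusted p = 4.27e-06). Acta2 had 7.11, 6.04 and 4.84. The part of other cell types in the Pcdh18 and Pcdh19 differences was not tested.

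The other delta-2 protocadherins differed less between the lines. Pcdh17, which is known from synapse-rich regions of the brain, gave 10.1 and 10.06 in cells labelled N, 10.02 and 10.08 in cells labelled VE, and 9.97 and 9.78 in cells labelled VE+N. The arrays labelled VE and N overlapped, and those labelled VE+N were lower without a call. The differences were -0.03 (95% interval -0.28 to 0.21, limma adjusted p = 0.893) for VE minus N, -0.20 (-0.45 to 0.04, limma adjusted p = 0.25) for VE+N minus N and -0.17 (-0.41 to 0.07, limma adjusted p = 0.403) for VE+N minus VE. Pcdh10 gave 4.42 and 4.17, then 3.92 and 3.67, then 3.85 and 4.0, so that its mean passed the guide in cells labelled N alone. It fell by 0.50 ± 0.134 in cells labelled VE (limma adjusted p = 0.0437), and the call was lost on leaving out any 1 of the 6 arrays (limma adjusted p between 0.0551 and 0.26). Pcdh8 stayed below the guide, between 3.6 and 4.12, and was not called.

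Pcdh1 and Pcdh12 were each lower in cells labelled VE, and in those labelled VE+N, than in cells labelled N. They are near neighbours on chromosome 18, with 1 protein-coding gene between them in the RefSeq order, and lie beyond the protocadherin clusters. Pcdh1, a delta-1 protocadherin known from airway epithelium, gave 8.05 and 7.98 in cells labelled N, 7.07 and 6.87 in cells labelled VE, and 6.73 and 6.57 in cells labelled VE+N. The lines did not overlap. It fell by 1.04 ± 0.115 (SE, n = 2 arrays a line, limma adjusted p = 0.000622) in those labelled VE and by 1.36 ± 0.115 (limma adjusted p = 0.000116) in cells labelled VE+N, or 2.06-fold and 2.57-fold, and these calls were made under all alternatives tried. Its VE+N minus VE difference of -0.32 ± 0.115 was outside the threshold (limma adjusted p = 0.141).

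Pcdh12, first described as an endothelial protocadherin named VE-cadherin-2, gave 8.99 and 8.93 in cells labelled N, 8.46 and 8.39 in cells labelled VE, and 8.41 and 8.5 in cells labelled VE+N. The arrays labelled N were the highest, and the other lines overlapped. It fell by 0.53 ± 0.0983 (limma adjusted p = 0.00829) in those labelled VE and by 0.50 ± 0.0983 (limma adjusted p = 0.00885) in cells labelled VE+N, while those lines differed by 0.03 (95% interval -0.20 to 0.25, limma adjusted p = 0.915). The first call was lost without N replicate 1 (-0.50, limma adjusted p = 0.075) or VE replicate 2 (-0.50, limma adjusted p = 0.0682), and the other without N replicate 1 (-0.47, limma adjusted p = 0.0772). Of the 14 endothelial markers, 4 had their highest mean signal in cells labelled N as Pcdh12 did: Pecam1 (11.64, 11.28 and 11.49 in cells labelled N, VE and VE+N), Emcn (12.44, 12.06 and 12.21), Robo4 (9.3, 8.6 and 8.88) and Cdh5 (7.28, 6.94 and 7.1). A further 5 had their lowest there. The part of these markers in the Pcdh12 difference was not tested.

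The remaining protocadherins outside the clusters showed small differences. Pcdh7, a delta-1 member, gave 8.36 and 8.42 in cells labelled N, 8.36 and 8.57 in cells labelled VE, and 8.47 and 8.82 in cells labelled VE+N. Its largest difference was 0.26 (95% interval -0.06 to 0.58, limma adjusted p = 0.269), between cells labelled VE+N and N. Pcdh9 lay between 5.71 and 6.58 and varied as much between arrays of cells labelled VE+N (5.71 and 6.36) as between lines. Pcdh11x stayed below the guide, between 2.31 and 2.85, and Pcdh15, which forms the tip links of hair cells with Cdh23, lay between 5.16 and 5.45. None of these was called. Pcdh20, below the guide in all lines, rose by 0.40 ± 0.109 in cells labelled VE+N (limma adjusted p = 0.0368), from 3.34 and 3.35 in those labelled N to 3.82 and 3.68, but lost its call on leaving out any 1 of the 6 arrays (limma adjusted p between 0.0509 and 0.168).

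**Figure D3:**
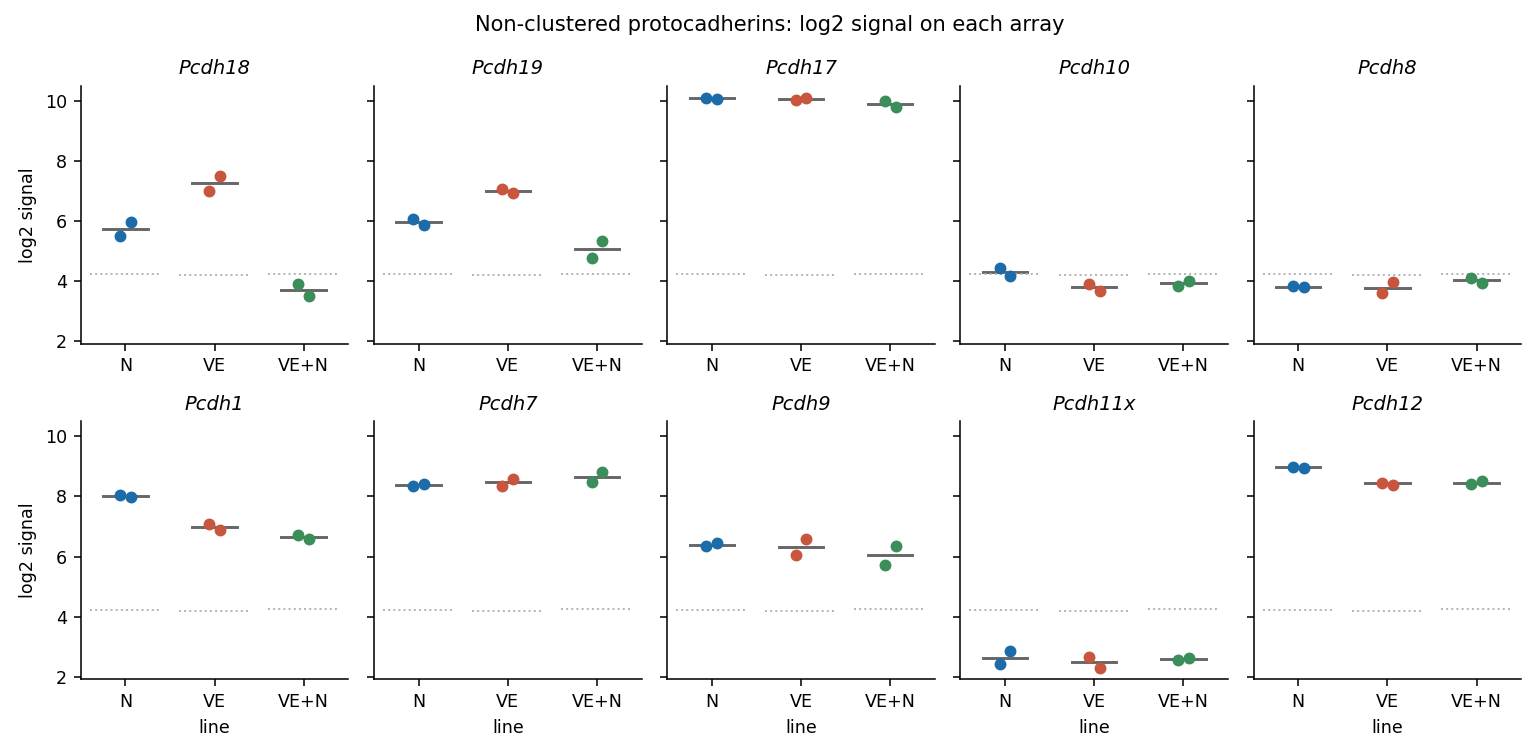
Log2 signal of 10 protocadherins outside the clusters on each array (points) of lines N, VE and VE+N, with the mean of the 2 arrays (bar) and the guide for dim signals in that line (dotted line). Pcdh18 and Pcdh19 are highest in VE and lowest in VE+N, Pcdh1 and Pcdh12 are highest in N, and Pcdh17 stays between 9.78 and 10.1 on all arrays.

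The 22 beta protocadherins lie in a row on chromosome 18, and both falls and rises were called among them. In cells labelled VE 5 were called lower than in cells labelled N and 0 higher. In cells labelled VE+N 4 were lower and 2 higher than in cells labelled N, and 2 were higher than in cells labelled VE. The shares called were 22.7%, 27.3% and 9.09% of the cluster, against 15.4%, 19.1% and 10.1% of all genes. The median difference over the cluster was 0.05, 0.19 and 0.13 in these comparisons, so that most members not called lay slightly above 0. In gene order, the calls lower in cells labelled VE stood at places 5, 7, 9, 11 and 12. Those lower in cells labelled VE+N than in those labelled N stood at places 5, 7, 11 and 19, and those higher at places 14 and 15.

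Pcdhb11 had the largest fall of the cluster. It gave 6.99 and 6.83 in cells labelled N, 5.62 and 5.5 in cells labelled VE, and 5.61 and 5.69 in cells labelled VE+N. The arrays labelled N were the highest, and the other lines overlapped. It fell by 1.35 ± 0.108 (SE, n = 2 arrays a line, limma adjusted p = 0.000123) in those labelled VE and by 1.26 ± 0.108 (limma adjusted p = 0.000126) in cells labelled VE+N, and these calls were made under all alternatives tried. Pcdhb7 gave 7.16 and 6.91, then 6.26 and 6.05, then 6.08 and 6.21, in the same pattern of overlap. It fell by 0.88 ± 0.128 (limma adjusted p = 0.00255) and 0.89 ± 0.128 (limma adjusted p = 0.00187) in cells labelled VE and VE+N.

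Pcdhb5 was lower in both lines by less. Its signals were 6.06 and 6.02 in cells labelled N, 5.59 and 5.55 in cells labelled VE, and 5.77 and 5.47 in cells labelled VE+N, and the arrays labelled N were above all others. It fell by 0.47 ± 0.121 (limma adjusted p = 0.0353) in cells labelled VE, a call lost on leaving out either array labelled N or VE (limma adjusted p between 0.136 and 0.17). In cells labelled VE+N it fell by 0.42 ± 0.121 (limma adjusted p = 0.0452), a call kept only on leaving out VE+N replicate 1 and otherwise lost (limma adjusted p between 0.0834 and 0.192), with a difference of -0.27 without VE+N replicate 2 (limma adjusted p = 0.149).

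Pcdhb9 and Pcdhb12 were called lower for VE minus N only, and their arrays labelled VE+N stood apart from each other. Pcdhb9 gave 6.47 and 6.48 in cells labelled N, 5.98 and 5.73 in cells labelled VE, and 5.82 and 6.29 in cells labelled VE+N. The arrays labelled N were the highest, and the other lines overlapped. It fell by 0.62 ± 0.164 in cells labelled VE (limma adjusted p = 0.0399), and lost the call on leaving out either array labelled N or VE (limma adjusted p between 0.0854 and 0.233). Without VE+N replicate 2 it was called lower in cells labelled VE+N too (-0.66, limma adjusted p = 0.0277), where with all arrays the difference was -0.42 (limma adjusted p = 0.126). Pcdhb12 gave 5.56 and 5.65, then 4.93 and 4.49, then 5.21 and 5.71. The arrays labelled VE were the lowest, and those of the other lines overlapped.

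Pcdhb12 fell by 0.90 ± 0.191 in cells labelled VE (limma adjusted p = 0.0162), and was higher by 0.75 ± 0.191 in cells labelled VE+N than in those labelled VE (limma adjusted p = 0.0457). The fall lost its call without N replicate 1 (-0.94, limma adjusted p = 0.0511), N replicate 2 (-0.85, limma adjusted p = 0.0741) or VE replicate 2 (-0.68, limma adjusted p = 0.125). The rise was kept only on leaving out VE+N replicate 1 (limma adjusted p otherwise between 0.0566 and 0.265).

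Pcdhb14 was the beta protocadherin with the largest rise. It gave 5.57 and 5.52 in cells labelled N, 6.05 and 5.95 in cells labelled VE, and 6.39 and 6.8 in cells labelled VE+N, with no overlap between lines. It was 2.07-fold higher in cells labelled VE+N than in those labelled N (1.05 ± 0.141, SE, n = 2 arrays a line, limma adjusted p = 0.00137). Its rise over cells labelled VE was 0.59 ± 0.141 (limma adjusted p = 0.0356), a call kept only on leaving out VE+N replicate 1 (limma adjusted p otherwise between 0.0537 and 0.204), with a difference of 0.39 without VE+N replicate 2 (limma adjusted p = 0.11). Between cells labelled VE and N it differed by 0.46 ± 0.141 (limma adjusted p = 0.0694), and was called with only the 4 arrays compared (0.46, limma adjusted p = 0.02).

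Pcdhb15 and Pcdhb19 were called in 1 comparison each. Pcdhb15 gave 7.18 and 7.16, then 7.28 and 7.39, then 7.54 and 7.55 in cells labelled N, VE and VE+N, without overlap. It rose by 0.37 ± 0.0978 (limma adjusted p = 0.0322) from cells labelled N to VE+N, a call lost on leaving out any 1 of the 6 arrays (limma adjusted p between 0.0517 and 0.168). Pcdhb19 gave 6.33 and 6.37, then 5.58 and 5.91, then 5.05 and 5.84, so the arrays labelled VE and VE+N overlapped below those labelled N. It fell by 0.91 ± 0.234 in cells labelled VE+N (limma adjusted p = 0.03), and the call was kept only on leaving out VE+N replicate 2 (limma adjusted p otherwise between 0.0545 and 0.0996). The size rested on the arrays labelled VE+N, at -0.51 without replicate 1 of that line (limma adjusted p = 0.0728) and -1.30 without replicate 2 (limma adjusted p = 0.00412). Its VE minus N difference of -0.61 ± 0.234 (limma adjusted p = 0.136) was called with only the 4 arrays compared (-0.61, limma adjusted p = 0.026).

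Pcdhb22 was just outside the threshold in cells labelled VE+N. It gave 4.95 and 5.08 in cells labelled N, 5.38 and 5.47 in cells labelled VE, and 5.25 and 5.76 in cells labelled VE+N, so the arrays labelled N were the lowest. Its VE+N minus N difference was 0.49 ± 0.165 (limma adjusted p = 0.0814), which was called without VE+N replicate 1 (0.75, limma adjusted p = 0.00915). Its VE minus N difference of 0.41 (limma adjusted p = 0.156) was called with only the 4 arrays compared (0.41, limma adjusted p = 0.0362). The other beta protocadherins were not called in any comparison. The brightest was Pcdhb16, at 8.41 to 8.97, followed by Pcdhb17 at 6.39 to 6.85 and Pcdhb18 at 6.0 to 6.52. Signals ran from 5.63 to 6.11 for Pcdhb8, 4.61 to 5.69 for Pcdhb10, 5.13 to 5.62 for Pcdhb20, 4.86 to 5.49 for Pcdhb3 and 4.98 to 5.45 for Pcdhb2. They ran from 4.69 to 5.25 for Pcdhb4, 4.56 to 5.14 for Pcdhb21, 4.65 to 4.83 for Pcdhb13 and 4.22 to 4.52 for Pcdhb6. Pcdhb1, at 2.93 to 3.41, was the only beta protocadherin below the guide in all lines.

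The spread of cells labelled VE+N was shared by the cluster. Replicate 2 of that line was higher than replicate 1 in 18 of the 22 beta protocadherins (81.8%, median difference 0.30, range -0.30 to 0.79), in 10 of the 33 other members (30.3%, median -0.14) and in 49.5% of all genes. In cells labelled N the count was 12 of 22, with 10 of the 33 other members (30.3%, against 48.5% of all genes). In cells labelled VE it was 11 of 22, with 16 of the 33 others (48.5%, against 49% of all genes). The beta protocadherins are near copies of each other, and the older names in RefSeq set Pcdhb5, Pcdhb7 and Pcdhb9 in 1 subgroup (Pcdhb4A to Pcdhb4C), all called lower for VE minus N. The same names set Pcdhb11 and Pcdhb12 (Pcdhb5E and Pcdhb5F), also called lower, in a subgroup with Pcdhb4, Pcdhb6, Pcdhb8 and Pcdhb10, which were not called. The positions of the probes are not used here, so a signal shared between copies cannot be told apart from a change in each.

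**Figure D4:**
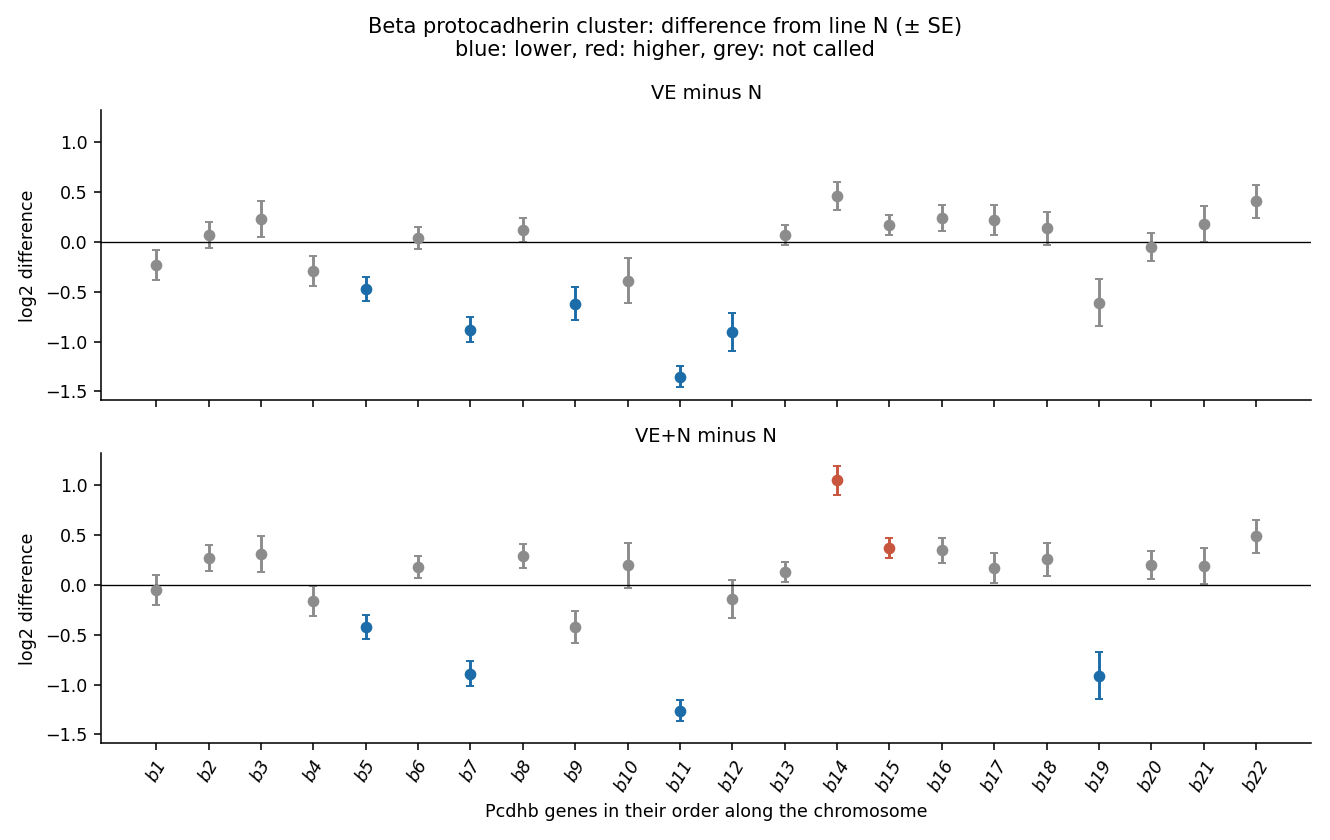
Log2 difference (points, with bars of ± 1 SE from the limma fit) of the 22 beta protocadherins from line N, in line VE above and in line VE+N below, with the genes in their order along the chromosome. Blue points (called lower) include b5, b7 and b11 in both lines, with b11 at -1.35 and -1.26, and red points (called higher) are b14 and b15 in VE+N.

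The rest of the cadherin superfamily was examined as a list of 27 further genes, of which 24 were measured. In cells labelled VE 4 were called higher and 2 lower than in cells labelled N, and in cells labelled VE+N 3 higher and 2 lower. Between cells labelled VE+N and VE 1 was higher and 1 lower. The shares called were 25%, 20.8% and 8.33% of the list, against 15.4%, 19.1% and 10.1% of all genes. The median differences over the list were -0.01, -0.08 and -0.04. Dchs1, a giant cadherin that pairs with Fat4 in planar cell polarity, gave 9.47 and 9.29 in cells labelled N, 7.56 and 7.64 in cells labelled VE, and 7.8 and 7.87 in cells labelled VE+N. It fell by 1.78 ± 0.107 (SE, n = 2 arrays a line, limma adjusted p = 2.8e-05) and by 1.54 ± 0.107 (limma adjusted p = 3.97e-05) in cells labelled VE and VE+N. Its partner Fat4 rose by 0.73 ± 0.155 (limma adjusted p = 0.0157) and 0.88 ± 0.155 (limma adjusted p = 0.00569). The first of these calls was lost without N replicate 2 (0.60, limma adjusted p = 0.101) or VE replicate 2 (0.55, limma adjusted p = 0.114).

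Of the flamingo cadherins, which also act in planar cell polarity, Celsr1 was called higher in both other lines than in cells labelled N, and Celsr2 in cells labelled VE+N. Celsr3 lay below the guide, between 3.82 and 4.11, and was not called. Celsr1 rose by 0.61 ± 0.122 (limma adjusted p = 0.0124) in those labelled VE and 0.62 ± 0.122 (limma adjusted p = 0.00914) in cells labelled VE+N. The first call was lost without N replicate 2 (0.47, limma adjusted p = 0.102), VE replicate 1 (0.56, limma adjusted p = 0.096) or VE replicate 2 (0.65, limma adjusted p = 0.0612), and the other without N replicate 2 (0.48, limma adjusted p = 0.0762). Celsr2 rose by 1.13 ± 0.101 (limma adjusted p = 0.000162) in cells labelled VE+N and by 0.80 ± 0.101 over cells labelled VE (limma adjusted p = 0.002), while its VE minus N difference of 0.33 was not called (limma adjusted p = 0.0697). Fat1 was higher in cells labelled VE by 0.53 ± 0.102 (limma adjusted p = 0.0097), and fell by 0.62 ± 0.102 from cells labelled VE to VE+N (limma adjusted p = 0.00706). The rise was lost as a call without N replicate 1, N replicate 2 or VE replicate 2 (limma adjusted p between 0.0539 and 0.0811), and the fall without VE replicate 2 (-0.55, limma adjusted p = 0.0688). Fat3 rose by 0.36 ± 0.0959 in cells labelled VE (limma adjusted p = 0.0399), a call lost on leaving out either array labelled N or VE (limma adjusted p between 0.143 and 0.231), and by the mean of its probe sets the difference was 0.06 (limma adjusted p = 0.78). The calsyntenin Clstn1 fell by 0.43 ± 0.102 (limma adjusted p = 0.0264) and 0.77 ± 0.102 (limma adjusted p = 0.00131) in cells labelled VE and VE+N, the former a call lost on leaving out either array labelled N or VE (limma adjusted p between 0.0794 and 0.156). The desmosomal cadherins measured (Dsg1b, Dsg1c, Dsg2, Dsg3, Dsg4, Dsc2 and Dsc3) stayed below the guide and were not called.

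Of the 14 cytoplasmic partners of cadherins, 4 were called higher and 1 lower in cells labelled VE, 4 higher and 1 lower in cells labelled VE+N, and 1 higher and 2 lower between cells labelled VE+N and VE. The shares called were 35.7%, 35.7% and 21.4% of the list, against 15.4%, 19.1% and 10.1% of all genes. The median differences over the list were 0.12, 0.18 and 0.03. Ctnnal1 (alpha-catulin), a relative of alpha-catenin, gave 7.87 and 7.62 in cells labelled N, 8.93 and 9.14 in cells labelled VE, and 10.05 and 10.3 in cells labelled VE+N. It rose by 1.28 ± 0.14 (limma adjusted p = 0.000595) in those labelled VE and 2.43 ± 0.14 (limma adjusted p = 1.4e-05) in cells labelled VE+N. The plakophilin Pkp2 rose by 1.27 ± 0.203 (limma adjusted p = 0.00407) and 0.97 ± 0.203 (limma adjusted p = 0.0119), and Pkp4 by 0.88 ± 0.0961 (limma adjusted p = 0.0006) and 0.94 ± 0.0961 (limma adjusted p = 0.000327), in the same order. For Pkp2 the second call was lost without N replicate 1 (0.88, limma adjusted p = 0.0618) or VE+N replicate 1 (0.74, limma adjusted p = 0.0683). Pkp1 rose by 1.28 ± 0.124 in cells labelled VE (limma adjusted p = 0.000315) and was 1.17 ± 0.124 lower in cells labelled VE+N than in those labelled VE (limma adjusted p = 0.000866). The main junctional catenins moved less: Ctnnb1 (beta-catenin) fell by 0.38 ± 0.0964 in cells labelled VE (limma adjusted p = 0.0323), Ctnna1 (alpha-catenin) rose by 0.43 ± 0.111 in cells labelled VE+N (limma adjusted p = 0.029), and Jup (plakoglobin) fell by 0.73 ± 0.115 there (limma adjusted p = 0.00301). The beta-catenin call was lost on leaving out either array labelled N or VE (limma adjusted p between 0.115 and 0.195), and the alpha-catenin call without N replicate 1, N replicate 2 or VE+N replicate 2 (limma adjusted p between 0.111 and 0.148). Ctnnd1 (p120-catenin) was not called in any comparison.

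The list of protocadherin partners and regulators, with 13 of 15 genes measured, included the kinases Fyn and Ptk2b, WAVE complex subunits, and CTCF, cohesin and DNA methylation factors that act on the clusters. In it 3 were called higher and 1 lower in cells labelled VE, 2 higher and 0 lower in cells labelled VE+N, and 1 in each direction between cells labelled VE+N and VE. The shares called were 30.8%, 15.4% and 15.4% of the genes measured, against 15.4%, 19.1% and 10.1% of all genes. The median differences were 0.07, 0.07 and 0.04. Ptk2b, a kinase bound by clustered protocadherins, rose by 1.26 ± 0.174 (limma adjusted p = 0.00205) and 0.69 ± 0.174 (limma adjusted p = 0.0278) in cells labelled VE and VE+N, the latter a call lost without N replicate 2 (0.45, limma adjusted p = 0.155), VE+N replicate 1 (0.61, limma adjusted p = 0.123) or VE+N replicate 2 (0.77, limma adjusted p = 0.0804). The WAVE subunit Wasf1 was higher by 0.62 ± 0.109 in cells labelled VE (limma adjusted p = 0.00673) and lower by 0.55 ± 0.109 in cells labelled VE+N than in those labelled VE (limma adjusted p = 0.0168). The former call was lost without N replicate 2, VE replicate 1 or VE replicate 2 (limma adjusted p between 0.0521 and 0.0674), and the latter on leaving out any array labelled VE or VE+N (limma adjusted p between 0.0538 and 0.107). Nckap1, Abi1, Abi2 and Cyfip2 of the same complex were not called. Fyn fell by 0.65 ± 0.0959 in cells labelled VE (limma adjusted p = 0.00284), and the methyltransferase Dnmt3b rose by 0.44 ± 0.121 (limma adjusted p = 0.0474) and 0.47 ± 0.121 (limma adjusted p = 0.0286) in cells labelled VE and VE+N. The former Dnmt3b call was lost on leaving out either array labelled N or VE (limma adjusted p between 0.173 and 0.194), and the latter was kept only on leaving out VE+N replicate 2 (limma adjusted p otherwise between 0.0591 and 0.129).

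Among the factors that organise the clusters, Ctcf, Rad21, Nipbl, Wapl and Smchd1 were not called. Of the proteases that cleave cadherins, 4 of 5 were measured, with 0 higher and 1 lower in cells labelled VE, 2 higher and 1 lower in cells labelled VE+N, and 1 higher between cells labelled VE+N and VE. The shares called were 25%, 75% and 25% of these 4 proteases, against 15.4%, 19.1% and 10.1% of all genes. Mmp14 fell by 0.65 ± 0.0974 (limma adjusted p = 0.00304) and 0.96 ± 0.0974 (limma adjusted p = 0.000308) in cells labelled VE and VE+N. Adam10, the sheddase of several cadherins, rose by 0.40 ± 0.108 in cells labelled VE+N (limma adjusted p = 0.0357), a call kept only on leaving out VE+N replicate 1 (limma adjusted p otherwise between 0.0664 and 0.164), and the gamma-secretase subunit Psen2 by 0.74 ± 0.0993 (limma adjusted p = 0.00132).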

How the data were processed

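RNA from 3 cell lines was measured on 6 arrays, 2 for each line named in the titles. The deposited values are log2 signals of 35556 probe sets, which the authors computed by RMA using Partek 6.3, per the submitters' notes on processing. The method subtracts background, quantile-normalises probes and combines them into probe sets, which can narrow differences of dim genes. The scale was read from the values. The genome build is not given in the sources used here, and RefSeq was used for names, gene order and promoters.

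Of the probe sets, 21789 carried 1 gene symbol, 1621 several and 12146 none. Symbols were updated through gene identifiers for 21698 probe sets, through accessions for 3, and kept for 88. Where a gene had several probe sets (1001 genes), the one with the highest mean over 6 arrays was used. Line means were fitted with limma 3.58.1 in R 4.3.3 on all 19936 genes and 6 arrays (3 residual and 4.89 prior degrees of freedom), with Benjamini-Hochberg adjustment of p over all genes of a comparison. The SE of a difference follows ±. The number of arrays limits the precision. The procedure was tested on simulated data.

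Named were all members called in any comparison, the 2 just outside the threshold in each, Cdh1, Cdh3, Cdh11, Cdh13, Pcdh12, Pcdh17, both reference cadherins, and called genes of the lists. Other members were named with the range of their values. The members and lists were chosen with earlier results of these data known. Alternatives were a replicate block, only the 4 arrays compared, centring, quantile normalisation, filters on dim genes, the mean or all of the probe sets, a trended prior, the authors' analysis of variance and leaving out each array. Leaving out either array of the line not compared gave the same fit as only the 4 arrays compared.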

Additional observations from a re-analysis of the deposited data

How the results depend on the processing

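The counts of called members depended on the statistic and on whether all probe sets were tested. Leaving out dim genes gave 11 to 13, 13 and 3 to 5 calls in the 3 comparisons, against 12, 16 and 4. For VE minus N it gave 4 higher and 7 to 9 lower, against 2 higher and 10 lower. For VE+N minus N it gave 4 higher and 9 lower, against 6 higher and 10 lower. It also left fewer members to test, between 21 and 42 of the 55. Of the 39 that passed the guide, 33.3%, 33.3% and 12.8% were called, against 25.8%, 30.5% and 18.3% of all genes that passed it. Of the 2208 values of named genes under alternatives, 1821 kept their direction and their side of the threshold, 328 were no longer called, 35 became called and 24 changed sign, with 0 sign changes in a call. Of the 39 calls of list genes, 20 were made in every fit that left out 1 array.

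For VE minus N, 12 members were called, against 7 when all probe sets were tested, 4 with the methods' analysis of variance after Benjamini-Hochberg adjustment, 5 with its unadjusted p and fold over 2, and 5 with the adjusted limma p and that fold. For VE+N minus N, 16 were called, against 10, 7, 5 and 5 in that order, and 6 of the 7 were among the 16. For VE+N minus VE, 4 were called, against 2, 1, 2 and 2. The 1 member called there by the adjusted analysis of variance was not among the 4. On leaving out 1 array the counts ranged from 7 to 14, from 8 to 16 and from 2 to 5. The lowest were without N replicate 1 or VE replicate 2 (7), without N replicate 1 (8), and without VE replicate 1, VE replicate 2 or VE+N replicate 2 (2). Without N replicate 2 the VE+N minus N count was 10. With the adjustment, which is an addition here, the methods' analysis of variance did not call Pcdh18 in any comparison, and with its unadjusted p and fold it called Pcdh18 in all 3.

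Replicate numbers were not used to pair the lines in the main fit. Over all genes, the deviations of same-numbered arrays from their line means had correlations of -0.005, 0.123 and 0.069. These belong to N with VE, N with VE+N and VE with VE+N. As no value for paired arrays is at hand, they cannot decide whether the arrays were paired. With a replicate block 12, 17 and 4 members were called, with 3 calls lost (Pcdhb9 and Fat3 in VE minus N, Pcdhb12 in VE+N minus VE) and 3 gained among named genes (Cdh1 in VE minus N, Pcdhb22 in VE+N minus N, Cdh22 in VE+N minus VE).

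Sign changes concerned small differences. On leaving out 1 array, Cdh11 ranged from -0.15 to 0.14 for VE minus N, from -0.19 to 0.10 for VE+N minus N and from -0.14 to 0.07 for VE+N minus VE. Cdh3 ranged from -0.03 to 0.07 for VE minus N, and Pcdhb12 from -0.39 to 0.10 for VE+N minus N. For VE+N minus VE the ranges were -0.03 to 0.06 for Cdh15, -0.01 to 0.07 for Pcdh12, -0.69 to 0.10 for Pcdhb19, -0.18 to 0.34 for Pcdhb22, -0.10 to 0.20 for Pcdhb5, -0.11 to 0.09 for Pcdhb7 and -0.04 to 0.43 for Pcdhb9. Median centring turned Cdh3 for VE minus N (-0.09), and Cdh11 (0.05) and Pcdhb7 (0.08) for VE+N minus VE. Quantile normalisation turned Cdh11 (0.01) and Pcdh17 (0.02) for VE minus N, and Pcdh12 (-0.03) and Pcdhb7 (0.07) for VE+N minus VE. Medians over the 19936 genes, on which the arrays were centred, differed by 0.108 for VE minus N, while those over all deposited probe sets lay between 4.85 and 4.91. Where the construction of an alternative does not show the cause, the cause was not tested.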

Other observations

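Probe sets annotated to several genes were not used for the members. The probe set named for the 14 alpha protocadherins gave 3.84 and 3.7 in cells labelled N, 3.68 and 3.71 in those labelled VE, and 3.73 and 3.6 in those labelled VE+N, below the guide on every array. Its differences of -0.07 for VE minus N, -0.10 for VE+N minus N and -0.03 for VE+N minus VE were not called by limma over all probe sets (adjusted p = 0.793, 0.634 and 0.929). A further 3 probe sets name Cdh11 together with 6820431F20Rik and 2610005L07Rik. They gave 8.8 to 9.45 and, for the other pair, 10.41 to 10.88, whereas the probe set of Cdh11 alone stayed at 3.76 to 4.05, and none of the 3 was called.

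The members with more than 1 probe set were Cdh18, Cdh24, Pcdh15 and Pcdh9. The second probe set of Cdh18 differed by 0.45 between cells labelled VE+N and N, beside 0.44 for the first. For Pcdh9 the second gave -0.30 and the first -0.36 in that comparison. The second probe set of Pcdh15 lay between 3.53 and 3.87, below the guide in every line, whereas the first lay between 5.16 and 5.45. For Cdh24 the second lay between 5.13 and 5.43 and the first between 5.97 and 6.34. No second probe set was called by limma over all probe sets.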
